A study of Rattus norvegicus with 12 samples.

Results

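The heat shock response genes described here are 10 genes chosen by name: Hsph1, Dnajb1, Dnaja1, Hspa8, Hsp90aa1, Hspb1, Hspd1, Hspe1, Hsf1 and Bag3. All probe sets that the platform annotation assigns to exactly 1 of these symbols were taken, which gave 11 probe sets for 8 of the 10 genes, out of 31042 probe sets and 14217 named genes on the array. Hspa8 and Hsp90aa1 are annotated only on probe sets with several symbols and have no value here. The values come from livers of 12 male Wistar rats, an outbred laboratory strain, aged 5 weeks per the labels and measured on 1 Affymetrix array each. Of these, 6 had eaten the purified AIN93G diet with 20% maple syrup, and 6 the same diet with 20% of a sugar mix syrup made to resemble its sugars. The labels name 7 rats in the maple syrup group and 8 in the sugar mix group, and how the 6 of each were chosen is not given in the sources used here. The groups had in common 4 earlier days on the plain diet, 11 days on their syrup and a fast of 16 hours before the liver was taken. The rats carried no transgene or induced injury that the labels name, and whole liver was used, so fewer cells of a type and less RNA per cell cannot be told apart.

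Heat shock proteins are chaperones that hold, refold or hand over damaged proteins. Their genes are switched on together by HSF1, a transcription factor that chaperones keep inactive until misfolded protein draws them away, after which it assembles and binds repeats of the letters GAA in alternating orientation, the heat shock element. In liver, heat and many toxic compounds are known to switch it on. The label calls the genes cytosolic, but the products of Hspd1 and Hspe1 work in mitochondria, so they are called heat shock response genes here.

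The promoters show what these genes, which were chosen by name, share in sequence. Whether the sequences bear on the values over the animals was not tested. RefSeq windows of 250 bases before to 50 bases after the start site (build GRCr8) were given for 8 of the 10 genes, all but Hsp90aa1 and Hsf1. A head-to-head or tail-to-tail pair of units, GAANNTTC or TTCNNGAA, was in the windows of 8 of these 8 genes and in 15.9% of all 33469 windows. Each of these motifs reads the same on both strands. A run of 3 units, in which a further GAA or TTC continues such a pair in alternation after another NN, holds both short motifs and was in 5 of the 8 windows (Hsph1, Dnaja1, Hspa8, Hspd1 and Hspe1), against 0.798% of all windows. These are matches of letters only. Hspa8, which has no value here, is counted among the 8 genes and the 5 windows. In the stretches below, 5′ to 3′ on the gene's own strand, capitals mark GAANNTTC or TTCNNGAA and positions count from the start site at 1.
Hsph1, -110 to -1, chr12:10427258-10427367, plus strand: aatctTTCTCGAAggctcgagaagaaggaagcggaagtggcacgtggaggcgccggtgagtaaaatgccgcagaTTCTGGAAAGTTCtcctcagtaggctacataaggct
Dnajb1, -60 to -1, chr19:41431142-41431201, minus strand: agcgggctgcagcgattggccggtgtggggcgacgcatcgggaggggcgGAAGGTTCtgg
Dnaja1, 6 to 30, chr5:60638409-60638433, plus strand: ggcgGAACTTTCCAGAAcgctcggt
Hspb1, -140 to -91, chr12:26432392-26432441, minus strand: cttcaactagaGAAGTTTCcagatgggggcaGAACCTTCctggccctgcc
Hspe1, -90 to -21, chr9:64084237-64084306, plus strand: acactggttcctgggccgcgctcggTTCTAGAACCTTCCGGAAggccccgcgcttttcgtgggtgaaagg
Bag3, -140 to -91, chr1:192533320-192533369, plus strand: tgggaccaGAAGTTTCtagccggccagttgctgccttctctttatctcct
Hspd1 lies on the minus strand opposite Hspe1, with start sites 290 bases apart, and 2 of the 2 overlapping runs of 3 units in its window are the same bases as those printed for Hspe1. In Dnaja1 the run lies at 10 to 22, after the start site. In Hsph1 the run lies at -36 to -24, with a separate pair of units at -105 to -98.

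The deposited values resemble log2 intensities in level, from 5.57 to 15.21 over the array, but their differences between animals are far smaller than log2 intensities give, with a median standard deviation of 7.13e-06 for a probe set over the 12 arrays. No fold change is therefore given. Levels of different probe sets are compared only to pick the probe set of a gene and to set some genes beside the array medians. To follow a gene over animals, each value is also given as a standardised value, its distance from the mean of the 12 animals in standard deviations of that probe set. The probe sets of the hepatocyte genes Alb, Apoa1 and Ttr had mean levels of 15.21, 14.39 and 14.45. The labels call the samples biological replicates and give no batch.

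Maple syrup was not found to change any of the 8 measured heat shock response genes. With limma over 31042 probe sets, 0 of the 11 probe sets passed a Benjamini-Hochberg adjusted p of 0.05, each with an adjusted p of 0.9998, and 0 had an unadjusted p under 0.05. The background was 0% of all probe sets called, 4.07% (1263) at an unadjusted p under 0.05 and 0.106% with groups that did not overlap. The diet groups overlapped in all 11 probe sets. Differences are sized by Hedges' g, which divides the mean with maple syrup less the mean with sugar mix by the pooled standard deviation within a diet, with a correction for few animals. In 9 of the 11 probe sets, 81.8%, the mean was lower with maple syrup, where 51.4% of all probe sets were. The 8 genes had a median g of -0.35, against -0.04 for all 14217 genes. The members move together over the animals, so their directions are not separate observations. Under median centring of the arrays 94.29% of all probe sets had a moderated t above 0, and under quantile normalization 38.58%, against 48.60% as deposited.

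Among the partners of HSP70, Hsph1 encodes HSP110, which helps HSP70 release its nucleotide. Its lowest, median and highest levels were 11.22365, 11.22385 and 11.22411 with maple syrup, against 11.22358, 11.22398 and 11.22413 with sugar mix. Both groups ran over nearly the same range. When each maple syrup animal was set against each sugar mix animal, the maple syrup animal had the higher value in 14 of 36 pairings. The g was -0.31 (95% interval -1.36 to 0.75, n = 6 each, two-sided exact permutation p = 0.567). The second Hsph1 probe set had g = -0.27.

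Dnajb1 encodes a J-domain protein of the HSP40 family that delivers clients to HSP70. Its lowest, median and highest levels were 10.28060, 10.28089 and 10.28132 with maple syrup, against 10.28057, 10.28119 and 10.28146 with sugar mix. Of the animals above the median of the 12, 2 were fed maple syrup and 4 sugar mix. The g was -0.57 (95% interval -1.63 to 0.51, exact permutation p = 0.290), and -0.45 in the second probe set.

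Dnaja1 encodes a J-domain protein of another class. It ran from 12.59849 to 12.59853 around a median of 12.59851 with maple syrup, and from 12.59845 to 12.59857 around a median of 12.59854 with sugar mix. All 6 maple syrup animals therefore lay inside the range of the sugar mix animals. The g was -0.38 (95% interval -1.43 to 0.68) in the brighter probe set. The second had g = -0.73 (95% interval -1.81 to 0.38), with the smallest exact permutation p of the 11 probe sets, 0.195. Under median centring the moderated t of the brighter probe set became 0.16, against -0.74 as deposited.

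Bag3, a cochaperone that links HSP70 to selective autophagy, had lowest, median and highest levels of 9.79592, 9.79831 and 9.80034 with maple syrup, against 9.79598, 9.80008 and 9.80270 with sugar mix. Its g was -0.65 (95% interval -1.72 to 0.44, exact permutation p = 0.240), the lowest of the 8 genes. Sugar mix animal 1 had the highest value of the 12, at 1.79 standard deviations.

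Hspd1 and Hspe1 encode the mitochondrial chaperonin HSP60 and its lid, HSP10. Hspd1 had lowest, median and highest levels of 13.457401, 13.457403 and 13.457408 with maple syrup, against 13.457402, 13.457404 and 13.457409 with sugar mix. For Hspe1 they were 13.28632, 13.28634 and 13.28637 with maple syrup, against 13.28630, 13.28634 and 13.28640 with sugar mix, so that the medians of Hspe1 almost coincided. The g of Hspd1 was -0.42 (95% interval -1.47 to 0.65) and that of Hspe1 was -0.135 (95% interval -1.18 to 0.91). The 12 values of Hspd1 spanned only 7.27e-06 around a level of 13.46. Those of Hspe1 spanned 0.000107 around 13.29. In both genes sugar mix animal 1 was the highest of the 12 animals, at 1.65 and 1.97 standard deviations. Median centring turned the moderated t to 0.64 for Hspd1 and 0.41 for Hspe1, against -0.80 and -0.26 as deposited. Array medians differed by up to 0.000169, more than either gene varied.

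Hspb1 and Hsf1 had the only means that were higher with maple syrup. Hspb1 encodes a small heat shock protein that holds unfolded proteins. It ran from 8.48341 to 8.49752 with maple syrup and from 8.48204 to 8.49657 with sugar mix, with medians of 8.48932 and 8.48723, and its g was 0.24 (95% interval -0.82 to 1.28). For Hsf1, the factor itself, g was 0.42 (95% interval -0.65 to 1.47), and the maple syrup animal had the higher value in 23 of 36 pairings. It ran from 7.836708 to 7.836721 with maple syrup and from 7.836703 to 7.836722 with sugar mix. Its 12 values spanned 1.89e-05 around 7.84.

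**Figure D1:**
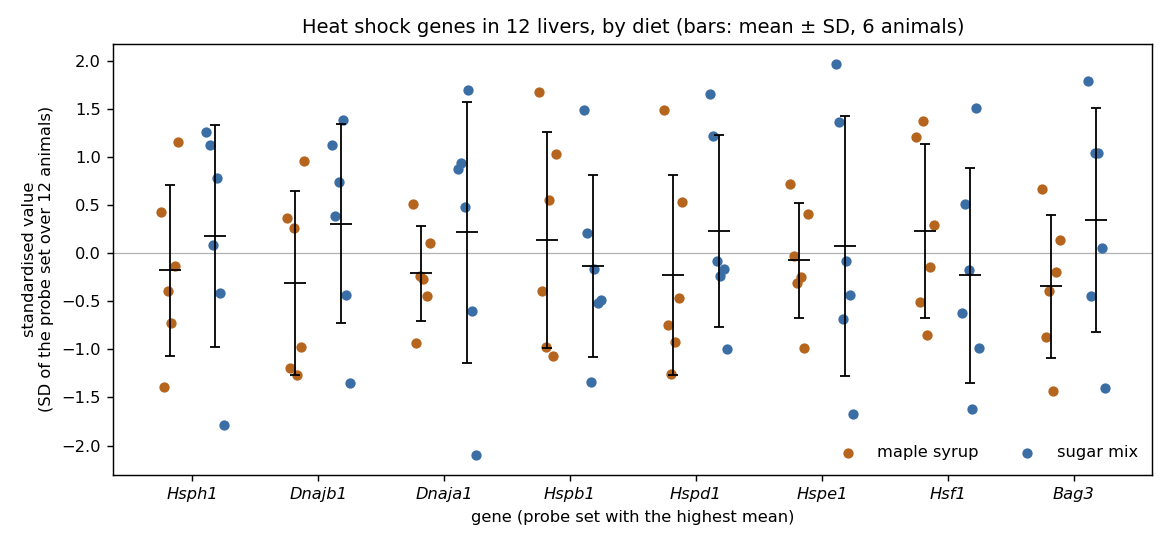
Standardised values (vertical axis, in standard deviations of the probe set over the 12 animals) of the 8 measured genes (horizontal axis), maple syrup left and sugar mix right, 1 point per animal with the mean and SD of 6 animals. The groups overlap in every gene shown.

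**Figure D2:**
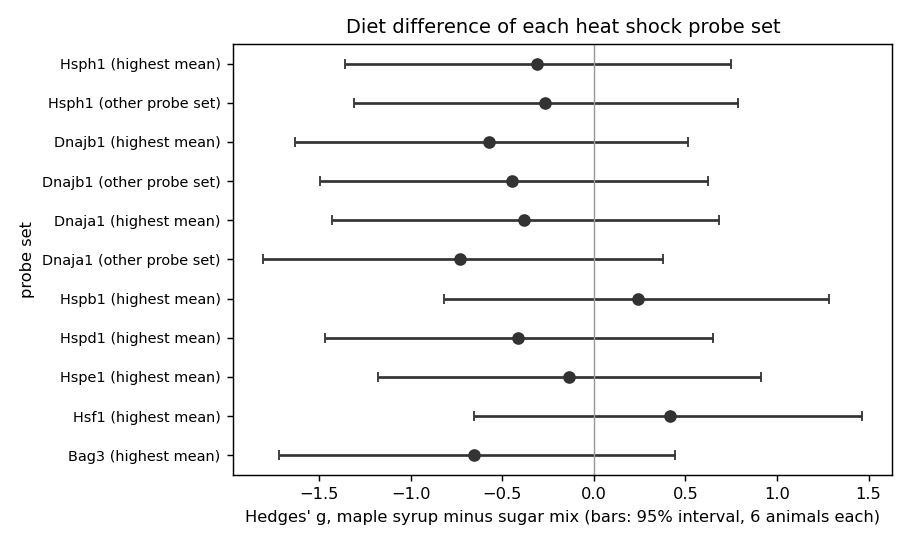
Hedges' g for maple syrup minus sugar mix (horizontal axis, in standard deviations between animals) for the 11 probe sets (vertical axis), with 95% intervals, 6 animals each. Estimates run from -0.73 to 0.42 and all 11 intervals include 0, but they reach from -1.81 to 1.47.

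Animals of 1 diet differed more than the diet means. Averaged over the 8 genes, the standardised value of maple syrup animals 1 to 6 was 0.88, -0.76, -0.24, -0.65, -0.55 and 0.58, and that of sugar mix animals 1 to 6 was 1.19, 0.66, 0.01, 0.35, -0.13 and -1.35. Each diet held both high and low animals, and the diet means were -0.12 with maple syrup and 0.12 with sugar mix. In maple syrup animals 1 and 6, 8 of 8 genes lay above their own mean, and in sugar mix animals 1 and 2, 7 of 8 did. In maple syrup animals 2 and 5 and in sugar mix animal 6, 0 of 8 did.

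Sugar mix animals 1 and 6 were the extremes. Animal 1 was among the 3 highest of the 12 in 7 of 8 genes, and animal 6 among the 3 lowest in 7 of 8. In animal 6, Dnaja1 was at -2.10, Hsph1 at -1.79 and Hspe1 at -1.67. Sugar mix animal 4 was split: Dnaja1 stood at 1.70 and Dnajb1 at 1.38, while Hspd1 stood at -0.24, Hspe1 at -0.08 and Hsf1 at -1.62.

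Single animals also moved the diet estimates. Without sugar mix animal 6 the g of Bag3 was -1.18, that of Dnaja1 -1.22, that of Dnajb1 -1.02 and that of Hsph1 -0.83. At the other end, the g was -0.42 for Bag3 without sugar mix animal 1, -0.13 for Dnaja1 and -0.38 for Dnajb1 without sugar mix animal 4, and -0.10 for Hsph1 without maple syrup animal 2. The g of Hspd1 ran from -0.84 without maple syrup animal 1 to -0.17 without sugar mix animal 1, and that of Hsf1 from 0.18 without sugar mix animal 4 to 0.86 without sugar mix animal 5. Without sugar mix animal 1 the g of Hspe1 was 0.24, and without maple syrup animal 1 that of Hspb1 was -0.04. None of these genes was called by limma with any single animal left out.

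**Figure D3:**
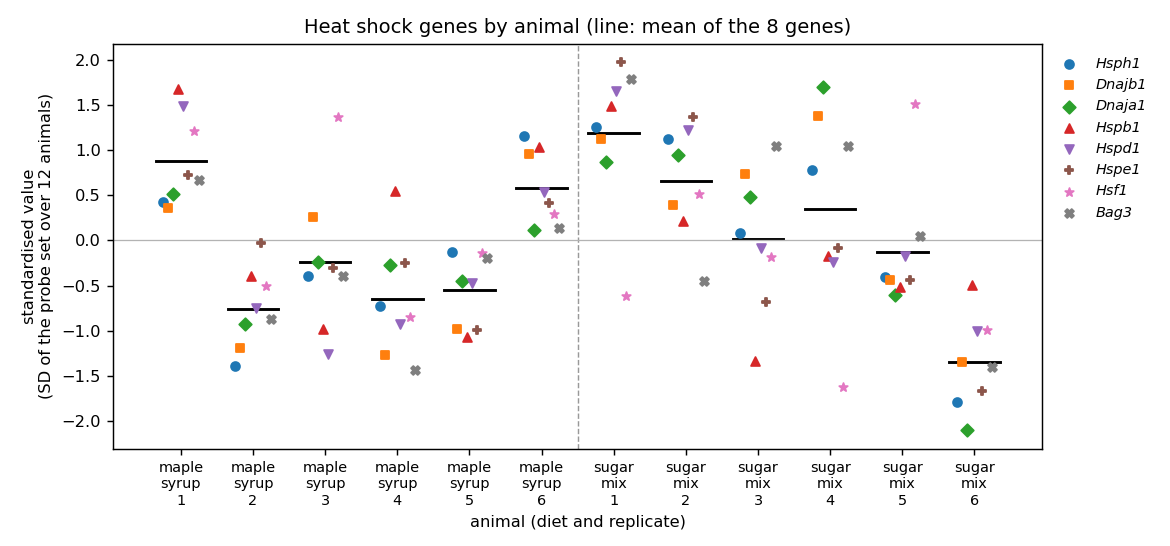
Standardised value (vertical axis) of each of the 8 genes in each of the 12 animals (horizontal axis, maple syrup left and sugar mix right of the dashed line), with a line at the mean of the 8 genes. The mean runs from -1.35 in sugar mix animal 6 to 1.19 in sugar mix animal 1.

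In the values as deposited, 7 of the 8 genes varied together over the 12 livers, and Hsf1 had r near 0 with them. Both statements depend on the scaling of the arrays, as given below. Of the 28 pairs of genes, 27 had a Pearson r above 0, and the median r was 0.60 (median Spearman rho 0.60). Over all 101054436 pairs of genes on the array the median r was 0.005 and the quartiles were -0.23 and 0.24. An r above 0.7 was found in 11 of the 28 pairs, 39.3%, and in 0.945% of all pairs of genes. By permutation of the animals, adjusted over the 28 pairs, 12 pairs passed 0.05 for r, 11 for rho and 9 for both, and 16 had an unadjusted p of r under 0.05. All 12 pairs that passed for r were among the 21 pairs without Hsf1, whose median r was 0.73 (range 0.28 to 0.86). Hsf1 was set apart after its r was seen, so the higher median of the other pairs follows from that choice.

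Hsph1, Dnajb1, Dnaja1 and Bag3, a set picked after the r values were seen, had r of 0.73 to 0.86 with each other. Its lowest r was 0.73, for Hsph1 with Bag3 and for Dnaja1 with Bag3, below the 0.79 of Hsph1 with Hspd1 outside the set. Without the 2 animals farthest from the median of the first gene these were 0.58 and 0.61. For Dnaja1 with Bag3 the adjusted permutation p of rho was 0.0553. The r of Hsph1 with Dnaja1 was 0.86 and its rho was 0.85, with adjusted permutation p of 0.00364 and 0.00483, and r was 0.72 without the 2 animals farthest from the median of Hsph1. For Hsph1 with Dnajb1, r was 0.86 and rho 0.90 (adjusted permutation p 0.00364 and 0.00392), and r was 0.78 without the 2 farthest. Dnajb1 followed Dnaja1 at r = 0.84 and Bag3 at r = 0.84, with rho of 0.87 in both. In these 2 pairs r was 0.85 and 0.73 without the 2 animals farthest for Dnajb1. Dnajb1 with Bag3 had r = -0.22 after quantile normalization, where the other pairs of this set had no r because Hsph1 and Dnaja1 became constant. Quantile-normalized Dnajb1 had r = -0.11 with its own deposited values, and Bag3 had 0.96.

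The mitochondrial pair had an r near those among Hsph1, Dnajb1 and Dnaja1, but a lower rho. Both of its genes varied less than the gap between array medians. Hspd1 and Hspe1, which share the promoter stretch printed above, had r = 0.83 and rho = 0.69 (adjusted permutation p 0.0047 and 0.0474), and r was 0.72 without the 2 animals farthest for Hspd1. Each also followed Hsph1, with r = 0.79 for Hspd1 and 0.76 for Hspe1.

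For Hspb1 the r was higher with the mitochondrial chaperones than with the J-domain proteins, a contrast that was not tested. Its r was 0.73 with Hspe1 (rho 0.82) and 0.73 with Hspd1 (rho 0.55, adjusted permutation p 0.113), against 0.33 with Dnajb1, 0.34 with Dnaja1 and 0.28 with Bag3. Without the 2 animals farthest for Hspb1 the r with Hspd1 was 0.41.

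Hsf1, whose protein is controlled mostly after translation, had a median r of 0.07 with the 7 other genes (range -0.06 to 0.20) as deposited. After median centring its r ran from 0.12 with Bag3 to 0.99 with Hspd1, and after quantile normalization it was 0.54 with Hspe1 and -0.27 with Dnajb1. The 12 values of Hsf1 span less than the gap between array medians. Its centred values had r = -0.18 with its deposited ones, and its quantile-normalized values had r = 0.04 with them. In the maple syrup animals alone its r with Dnajb1 was 0.77 and with Bag3 0.74, and in the sugar mix animals it was -0.30 and -0.19. None of these passed an exact permutation test adjusted over the 28 pairs in a diet, and the difference between the diets was not tested.

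Most pairs of the genes also had an r above 0 within each diet, though none passed in a single diet after adjustment. With the diet means removed the median r was 0.59, and 10 of the 28 pairs passed. The median r was 0.71 among the 6 maple syrup animals and 0.58 among the 6 sugar mix animals, with 28 and 23 of 28 pairs above 0. No background over all pairs of genes was computed for 6 animals. Within a diet, 0 pairs passed after adjustment of exact permutation p, with 4 in maple syrup and 8 in sugar mix at an unadjusted p under 0.05. The smallest adjusted p was 0.215 with maple syrup and 0.0875 with sugar mix.

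The correlation was lower without 2 animals, sugar mix animals 1 and 6. They had the highest and lowest mean of these same genes, so a lower r without them follows in part from that choice. With fewer animals a given r also passes less easily. Without sugar mix animal 1 or without sugar mix animal 6, 8 pairs passed, with a median r of 0.51 and 0.53. Without both, the median r was 0.43, 0 pairs passed after adjustment (smallest adjusted permutation p 0.0556) and 8 had an unadjusted p under 0.05. Among these 10 animals r was still 0.81 for Dnajb1 with Dnaja1, 0.81 for Hsph1 with Dnajb1 and 0.75 for Hspd1 with Hspe1, while it was -0.04 for Hspe1 with Bag3. Without any other single animal, 10 to 16 pairs passed. The scaling mattered too: after quantile normalization Hsph1, Dnaja1 and Hspd1 took 1 value in all 12 arrays, and the pairs of the 5 remaining genes had a median r of 0.069, with Dnajb1 below 0 with each of the other 4, against 0.60 for the 28 pairs as deposited. Median centring is no check for Dnaja1, Hspd1, Hspe1 and Hsf1, whose ranges are smaller than the gap between array medians, since it subtracts that gap from their values. In the other 4 genes (Hsph1, Dnajb1, Hspb1 and Bag3) the median r was 0.616 as deposited and 0.618 after median centring, while after quantile normalization it was -0.219 in the 3 of them that still varied. Quantile-normalized Dnajb1, Hsf1 and Hspe1 had r of -0.11, 0.04 and 0.53 with their own deposited values, so this scaling did not keep their course. Hspb1 (0.999) and Bag3 (0.96) kept theirs, and the r between these was 0.28 as deposited and 0.385 after quantile normalization.

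**Figure D4:**
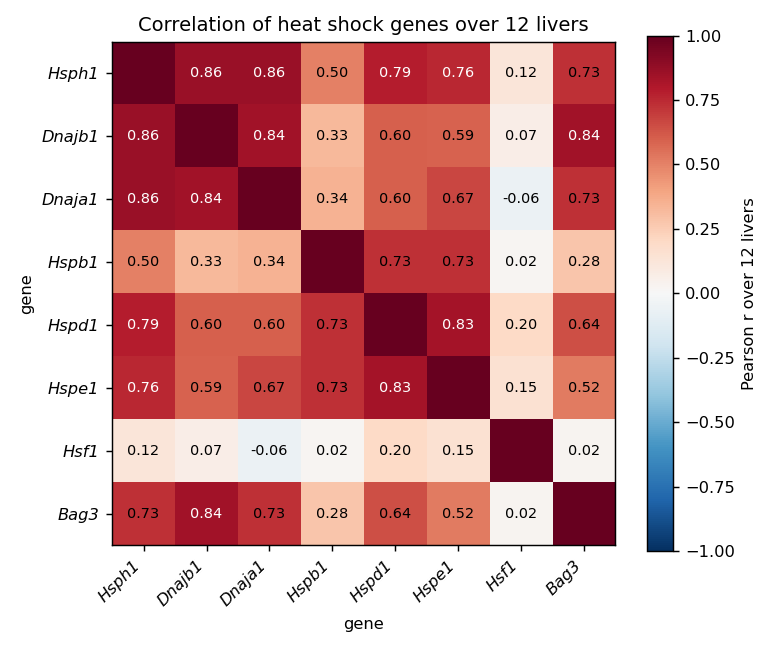
Pearson r over the 12 livers (colour and printed value) for each pair of the 8 genes, given on both axes. Hsph1, Dnajb1, Dnaja1 and Bag3 are joined by r of 0.73 to 0.86, and the row of Hsf1 stays between -0.06 and 0.20 in these deposited values, but not after median centring (0.12 to 0.99).

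Where a gene had 2 probe sets, both told the same course. Their r was 0.85 for Hsph1, 0.96 for Dnajb1 and 0.89 for Dnaja1 (rho 0.80, 0.97 and 0.76), and adjusted over the 3 genes the largest permutation p was 0.00048 for r and 0.00599 for rho. Without the 2 animals farthest for the brighter probe set, r was 0.75, 0.94 and 0.83. Among the maple syrup animals alone r was 0.955, 0.955 and 0.591, and among the sugar mix animals 0.854, 0.983 and 0.967. The median r of the 2 brightest probe sets was 0.36 over the 4525 genes that had more than 1.

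Genes of some other chaperone groups had a high correlation with the members. Their likeness is given as Pearson r with the mean standardised value of the 8 genes, as a description with no test, in the values as deposited only, and the points have the same 12 arrays in common. Over all 14209 other genes the median of this r was 0.05, and 2.7% of them had an r above 0.7. Of all 14217 genes, members included, 7828 had an r above 0. The 10 genes most like the mean, by a rule that used this r alone, included 2 cochaperones of HSP90: Stip1 (r = 0.92, rho 0.94), which bridges HSP70 and HSP90, and Chordc1 (r = 0.90, rho 0.84). Without sugar mix animals 1 and 6 these r were 0.90 and 0.84. The others were Ciao2b (0.95), of cytosolic iron-sulfur assembly, Map3k19 (0.95), Zng1a (0.92), Pmm2 (0.92), which makes mannose phosphate for glycosylation, Cldn14 (0.92), Trmt1l (0.91), Por (0.91), the reductase that feeds cytochrome P450 enzymes, and Timm8b (0.90), of mitochondrial import. Map3k19 had a low mean level of 6.50 (array medians 7.36).

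Of 17 measured heat-inducible genes outside the members, 8 had an r above 0.7 and 16 an r above 0, with a median of 0.69. Among HSP90 and its cochaperones, 4 of 15 had an r above 0.7 and the median was 0.61, and these 4 (Hsp90ab1, Stip1, Ahsa1 and Chordc1) are also in the heat-inducible list. In the chaperonin TRiC and prefoldin, which fold actin and tubulin, 7 of 13 had an r above 0.7, with a median of 0.71. Cytosolic HSP70 and its cofactors did so in 3 of 21, with a median of 0.20, and small heat shock proteins in 1 of 7, with a median of 0.36. Mitochondrial chaperones and proteases did so in 0 of 12, with a median of 0.12, and Hspa9, the mitochondrial HSP70 picked here after its value was seen, had r = 0.10. Of the genes above 0.7, Dnaja4 and Dnajb4 of the HSP70 list and Hspb8 of the small heat shock list are also in the heat-inducible list. The cold-inducible RNA-binding genes Cirbp and Rbm3 had r of -0.68 and -0.38.

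None of these lists held a gene that limma called between the diets. Over all 14217 genes, 6695 had a higher and 7521 a lower mean with maple syrup (median g -0.04). An unadjusted limma p under 0.05 was found in 591 of them. Of the heat-inducible genes, 5 had a higher and 12 a lower mean with maple syrup (median g -0.15). For HSP90 and its cochaperones the counts were 7 and 8 (median g -0.04), for HSP70 and its cofactors 13 and 8 (0.14), for TRiC and prefoldin 8 and 5 (0.12), for small heat shock proteins 1 and 6 (-0.57) and for mitochondrial chaperones and proteases 5 and 7 (-0.06). The smallest p in these lists belonged to Bag2, an HSP70 cochaperone, with g = 1.84 and an unadjusted limma p of 0.00499 (adjusted p 0.9998). In the list of HSP70 and its cofactors 3 of 21 genes had an unadjusted p under 0.05, the other two being Bag4 (g = 1.34) and Hspa4l (g = 1.17), the second of which is also the 1 such gene of the heat-inducible list. Among the small heat shock proteins Hspb9 had g = 1.28, with an unadjusted limma p of 0.0426. Of 3 heat shock factors and binding proteins outside the members, Hsf2 had g = 1.29 and an unadjusted limma p of 0.0311. All had an adjusted p of 0.9998, and genes picked by p have g that is too large on average. Their mean levels were 7.79 for Bag2, 7.47 for Bag4, 6.77 for Hspa4l, 7.08 for Hspb9 and 9.80 for Hsf2 (array medians 7.36).

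**Figure D5:**
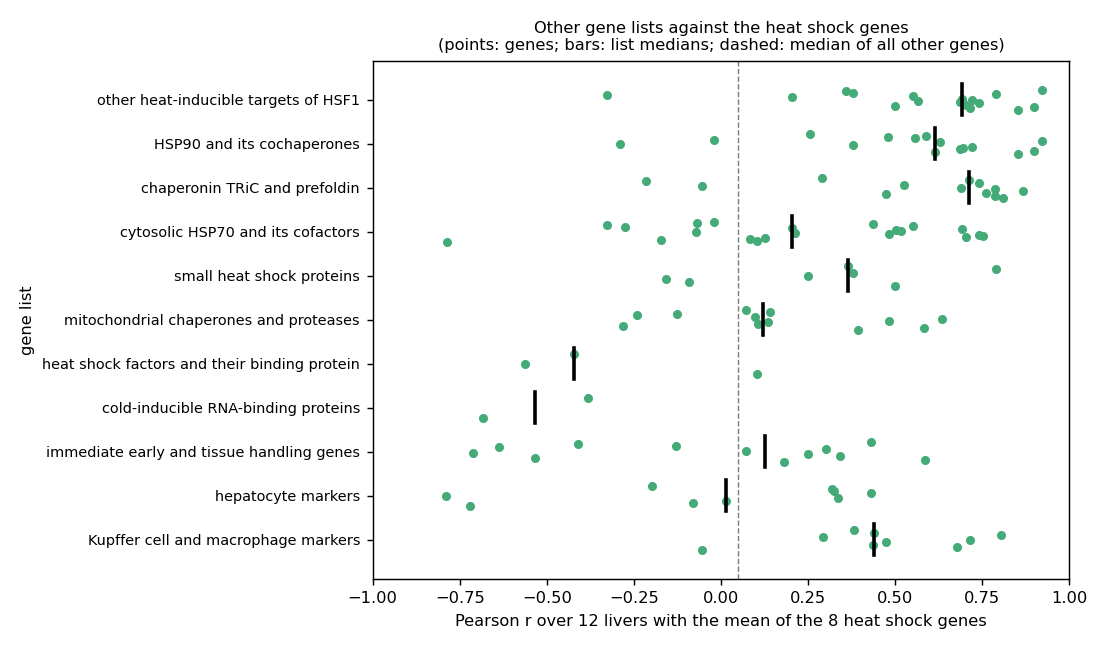
Pearson r over the 12 livers (horizontal axis) between each gene of 11 lists (vertical axis, 1 point per gene) and the mean of the 8 heat shock genes, with a bar at each list's median and a dashed line at the median of all other genes, 0.05. The heat-inducible, HSP90 and TRiC lists have medians of 0.61 to 0.71.

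Other properties of the samples moved with the members as well, and their part in the correlation was not tested. The array's own GAPDH probe sets had r of 0.59 to 0.69 with the mean of the 8 genes, those for beta-actin 0.41 to 0.48 and those for hexokinase -0.59 to -0.01. The array median had r = -0.27 and rho = -0.66. An r above 0 was found in 7828 of all 14217 genes, members included. Of 9 Kupffer cell and macrophage markers 8 had an r above 0, with a median of 0.44, and the mean of the list had r = 0.58. That mean standardised value ran from -1.49 to 0.65 with maple syrup and from -0.19 to 1.04 with sugar mix. In this list 1 marker was higher and 8 were lower with maple syrup (median g -0.68, 0 called by limma and 0 with an unadjusted p under 0.05). Over all 14217 genes 6695 were higher and 7521 lower. The mean of 9 hepatocyte markers had r = -0.15, and that of 12 immediate early genes, which respond to handling of the tissue, -0.07. These 2 means average genes of opposite sign. The hepatocyte markers ran from -0.79 (Cyp2e1) to 0.43 (Fgb), with 5 of 9 above 0. The immediate early genes ran from -0.71 (Ier2) to 0.59 (Dusp1), with 7 of 12 above 0. The r of the list mean was -0.095 for 7 sinusoidal endothelial markers, 0.13 for 9 stellate cell markers, -0.20 for 4 cholangiocyte markers, -0.40 for 3 erythroid markers, 0.02 for 3 neutrophil markers, -0.37 for 5 T and NK cell markers and 0.065 for 2 B cell markers.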

How the data were processed

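The deposited table gives 31099 probe sets on 12 arrays in the authors' own processed unit, treated here as a score, since its levels resemble log2 intensities but its differences do not. How it was summarised and normalized is not given in the sources used here. Per the labels' protocols, biotin-labelled cRNA was made from total liver RNA. Probe sets were named by the platform annotation: 20832 carried 1 symbol, 436 carried several (and name no gene here), and 9831 are not named in that table. Control probe sets (57) were dropped. No filter or further normalization was applied, and the probe set with the highest mean stood for a gene.

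The diet comparison used the package limma 3.58.1 under R 4.3.3 (a linear model with moderated variances that follow intensity, prior degrees of freedom 0.707, two-sided, adjusted by Benjamini-Hochberg over 31042 probe sets). The step was tested on simulated data. Hedges' g has 95% intervals from the noncentral t distribution. Exact tests used all 924 arrangements of the animals (smallest p 0.00216) or, within a diet, 720 (smallest p 0.00139), and correlation tests 100000 permutations. The 8 measured genes gave 28 pairs. Members and lists were chosen with earlier results of these data known. Named were all members, the 10 most alike genes and at most 3 genes by p from other lists. Further genes were named after their values were seen. These were the HSP90 cochaperones above 0.7, Hspa9, Dnaja4, Dnajb4, Hspb8 and the hepatocyte and immediate early genes of lowest and highest r. Alternatives were other normalizations, a floor at the 20th percentile, the lowest 30% left out, other variance models, array weights, other probe sets, the replicate number as a block and each array left out. The number of arrays limits the precision.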

Additional observations from a re-analysis of the deposited data

Results flagged for a closer look

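Of 22 groups of 6 animals, each 1 diet in 1 probe set, 2 held an animal far from the other 5, where chance gives about 1 in 20, or 1.1. In the second Hsph1 probe set, sugar mix animal 6 was at -1.36 standard deviations, far below the other 5. In the second Dnaja1 probe set, maple syrup animal 1 was at 0.83, far above the other 5.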

How the results depend on the processing

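No member was called under any alternative, and the lowest adjusted p was 0.73. Outside the fits that left out an animal, the moderated t of the genes kept its sign in 79 of 83 values. It turned for Dnaja1 (0.16), Hspd1 (0.64) and Hspe1 (0.41) under median centring and for Hspe1 (0.63) under quantile normalization. With 1 animal left out the sign held in 92 of 96 values, and the ranges that crossed 0 were -0.07 to 1.11 for Hspb1 and -0.96 to 0.45 for Hspe1. With the replicate number as a block, 0 probe sets were called and the moderated t lay between -1.34 for Bag3 and 0.88 for Hspb1. The numbers did not pair the animals: same-numbered animals had r over 0.1 in 1 of 6 pairs, and 0 of 6 correlated best with their own number. The count over all probe sets was 0 except where each was scaled to its own standard deviation, which called 43 (23 higher and 20 lower, 0 of them members). That scaling gives every probe set the same variance by construction. The median r of the 28 pairs, 0.60, ran from 0.513 to 0.701 with 1 animal left out. It was 0.069 after quantile normalization, which left 3 of the 8 genes constant because their rank did not change, and 0.570 after median centring, where 4 genes span less than the array medians that were subtracted (centred Hsf1 and Hspd1 had r of -0.18 and 0.305 with their deposited values), so this value is no sign of stability. Chosen after seeing the data were the counts of pairs that passed with 1 animal left out (8 to 16, against 12) and 3 further settings: without Hsf1 the median r was 0.727, without sugar mix animals 1 and 6 the median r was 0.425, and in the 4 genes whose range exceeded the gap between array medians it was 0.616 as deposited, 0.618 after median centring and -0.219 after quantile normalization, which kept 3 of them. Quantile-normalized Dnajb1 and Hsf1 had r of -0.11 and 0.04 with their own deposited values. What the values of 0.069 and -0.219 mean for the correlation of the deposited values was not tested, and neither was their cause.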
